A study of Mus musculus with 42 samples.

Results

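The regions described here are 100 bp genome tiles whose DNA methylation was higher after paternal exposure to di(2-ethylhexyl) phthalate (DEHP, a plasticizer) at both doses than in controls. Members were chosen by the percent methylation of the 9 libraries themselves: a tile was a member when the lowest of its 6 exposed libraries exceeded the highest of its 3 control libraries and the exposed mean exceeded the control mean by 5 percentage points or more. Of 141251 tiles, 1108 (0.784%) were members. The rule used every control contrast of the methylation table, so the number of members and their differences from control are descriptions and carry no test.

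C57BL/6J males, 8 weeks old at the start, received vehicle (control), 2.5 mg/kg/day (low) or 25 mg/kg/day (high) of DEHP for 67 days and were mated with females that were not exposed. Sample labels list sperm of wild-type C57BL/6 males with a stated age of 14 weeks, which is less than the 8 weeks at the start and 67 days of exposure add up to, and embryonic and extra-embryonic samples of wild-type male C57BL/6 * DBA/2J embryos at embryonic day 7.5. Per dose group they list 10 samples for reduced representation bisulfite sequencing (RRBS) and 4 for RNA sequencing. The labels list sperm for RRBS only, and RNA for embryonic and extra-embryonic samples only. The methylation table analysed here has 3 libraries per group and the expression table has 2. Their names give treatment and number only, so which of the listed tissues was measured is unknown for both. Embryos inherit a DBA/2J genome besides C57BL/6, and nothing in the labels says whether the libraries of a group came from separate fathers or litters, so p-values measure the spread between these libraries only.

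DNA methylation in mammals is the addition of a methyl group to cytosine, mostly where cytosine is followed by guanine (a CpG). CpG-dense promoters are usually unmethylated, while gene bodies and the DNA between genes are usually methylated, and distal regulatory elements often lie in between. Most methylation is erased and set again in the germ line and once more after fertilisation, and imprinted loci are the best known exception in the embryo. RRBS cuts DNA with MspI at CCGG and reads the fragments, so it covers CpG-rich DNA and leaves most of the genome out.

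The libraries were close in level but 1 control stood apart. Averaged over all tiles, control libraries were at 35.2, 35.7 and 36.1%, low libraries at 35.9, 35.7 and 36.3% and high libraries at 35.9, 36.1 and 35.9%. Control 1 was the lowest of the 9 and also had the lowest median correlation with the others, at 0.980. The exposed mean exceeded the control mean by 0.319 percentage points, which is given as a description because the rule used the same columns. Coverage per tile is not given in the table, so the depth behind a value is unknown.

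The count of members lay within the range that other assignments of the same 9 columns gave. With each of the 83 other choices of 3 columns as controls, the rule found 493 to 1500 tiles, with a median of 791. In 13 of these the count was 1108 or more, and 12 of the 13 had control 1 among the 3 columns taken as controls. The mirrored rule, under which every exposed library lies below every control, found 584 tiles (0.413%). Other choices of columns gave 505 to 1223 losing tiles, with a median of 850, and 2 of them gave 584 or fewer. When the columns were first shifted to 1 mean, 945 tiles gained, among them 920 of the 1108 members, and 739 lost.

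Sequences are shown for members at gene starts, where a tile can be read against the promoter, and were taken from RefSeq promoter windows of the assembly GRCm38.p6 (250 bases before to 50 after a start). Of the 1108 members, 14 lay wholly in such a window. All 6 tiles below are given 5′ to 3′ on the plus strand, with each CpG in capitals. The first pair are adjoining tiles at the start of D130017N08Rik, which lies beside Usp42, the gene of a deubiquitinating enzyme. S100z encodes a calcium-binding protein of the S100 family, Pdyn the precursor of the dynorphin opioid peptides, and Cdk1 the kinase that drives entry into mitosis.
D130017N08Rik, chr5:143758201-143758300: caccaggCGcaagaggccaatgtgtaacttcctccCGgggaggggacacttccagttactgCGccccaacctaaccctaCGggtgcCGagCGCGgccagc
D130017N08Rik, chr5:143758301-143758400: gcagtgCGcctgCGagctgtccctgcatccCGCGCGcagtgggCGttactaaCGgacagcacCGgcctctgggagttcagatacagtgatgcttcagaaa
S100z, chr13:95478701-95478800: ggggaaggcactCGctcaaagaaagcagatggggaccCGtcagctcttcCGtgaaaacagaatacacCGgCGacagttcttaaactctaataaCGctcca
Pdyn, chr2:129700001-129700100: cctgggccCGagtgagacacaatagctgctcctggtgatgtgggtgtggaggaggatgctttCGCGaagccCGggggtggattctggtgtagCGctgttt
Iqca, chr1:90153401-90153500: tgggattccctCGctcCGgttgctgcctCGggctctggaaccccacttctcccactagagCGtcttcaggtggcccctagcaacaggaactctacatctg
Cdk1, chr10:69352901-69353000: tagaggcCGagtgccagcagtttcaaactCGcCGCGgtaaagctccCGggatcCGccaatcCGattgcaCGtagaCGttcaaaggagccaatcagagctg

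The first D130017N08Rik tile, with 7 CpGs, was at 28.9, 30.1 and 30.4% in the controls, 44.4, 35.5 and 39.6% at the low dose and 41.0, 44.5 and 41.0% at the high dose. The adjoining tile, with 8 CpGs, was at 33.3, 27.1 and 31.8% in the controls, 46.0, 34.5 and 42.2% at the low dose and 35.7, 39.8 and 37.4% at the high dose. Both tiles thus held partial methylation in every library, and low 2 lay nearest to the controls in each.
The Cdk1 tile, with 9 CpGs, was at 0.671, 8.15 and 9.12% in the controls, 10.2, 13.2 and 12.6% at the low dose and 10.6, 12.8 and 12.6% at the high dose. Control 1 was far below the other 2 controls there, which lay 1.05 points or more under the exposed libraries.
At S100z the controls were at 53.9, 53.8 and 58.7%, the low group at 67.4, 61.5 and 64.4% and the high group at 64.6, 63.4 and 70.3%. At Pdyn the controls were at 37.6, 38.9 and 33.7%, the low group at 48.4, 43.3 and 40.5% and the high group at 48.4, 45.4 and 42.5%. These 2 starts were partly methylated in all libraries, unlike that of Iqca, which was at 2.78, 12.8 and 9.09% in controls and 13.8 to 26.2% in exposed libraries.
The 14 members held 2 to 10 CpGs, with a median of 6, and 13 of them (92.9%) contained CCGG, the MspI site. All 10634 tiles that lay wholly in a promoter window had a median of 9 CpGs, a CCGG in 83.2% and a median control level of 3.55%. The 766 other promoter tiles with a control mean of 20 to 80% had a median of 5 CpGs and a CCGG in 90.6%. CCGG reads the same on both strands.

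Most members differed from control by moderate amounts. The exposed mean exceeded the control mean by 5.02 to 22.4 percentage points, with quartiles of 6.71, 8.57 and 10.8. In 364 members the difference was 10 points or more, in 60 it was 15 or more and in 7 it was 20 or more. The gap between the highest control and the lowest exposed library was smaller, with a median of 1.32 points, and it was under 1 point in 438 members and 5 points or more in 76. The threshold separated tiles of like values. Just inside it, the tile at chr5:79993201-79993300 was at 75.5 to 77.1% in controls and 78.5 to 85.3% in exposed libraries, a difference of 5.02 points. Just outside it, a tile in Tmem120b differed by 4.99 points with controls at 85.2 to 88.9% and exposed libraries at 89.9 to 97.4%. In all, 1844 tiles (1.31%) had no overlap between exposed and control libraries, and 736 of them fell short of 5 points.

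The 12 members with the greatest differences near named genes lay in or within 2 kb of genes of many kinds. The first of them, at chr4:64017201-64017300 within Tnc, which encodes the extracellular matrix protein tenascin-C, was at 54.3, 46.0 and 59.5% in controls. It was at 63.9, 86.1 and 79.2% at the low dose and 69.5, 79.2 and 76.3% at the high dose, a difference of 22.4 points. Low 1 lay nearest to the controls and 4.43 points above the highest of them.
A tile in the immunoglobulin kappa locus Igk, at chr6:69803101-69803200, was at 43.6, 52.0 and 39.0% in controls, 57.3, 70.0 and 58.3% at the low dose and 73.0, 66.5 and 73.9% at the high dose. In Zbtb20, a zinc finger transcriptional repressor, the tile at chr16:43143001-43143100 was at 47.6, 26.7 and 42.4% in controls, 63.2, 53.0 and 65.5% at the low dose and 53.8, 53.4 and 66.7% at the high dose. The Zbtb20 controls spanned about as many points as separated the group means.
Gata3 encodes a transcription factor of trophoblast and T lymphocytes. Its tile, at chr2:9880601-9880700, was at 21.6, 32.3 and 34.4% in controls, 49.1, 40.6 and 62.3% at the low dose and 51.7, 54.4 and 39.8% at the high dose. It is the member of the 12 with the lowest control mean, 29.4% ± 6.89 (SD, n = 3), against 50.7% ± 10.9 at the low dose and 48.6% ± 7.78 at the high dose (SD, n = 3 each).
The widest gaps between groups among the 12 were in 3 other genes. In Cntnap2, a neurexin-family adhesion molecule of axons, controls at 61.2, 68.3 and 65.9% stood against 86.7, 81.8 and 76.8% at the low dose and 80.4, 82.8 and 93.2% at the high dose. Mylpf, the regulatory light chain of fast skeletal muscle myosin, had controls at 60.3, 68.4 and 57.1% against 75.9 to 84.8% in exposed libraries. For Cyp46a1, the enzyme that hydroxylates cholesterol in the brain, controls at 45.7, 40.9 and 42.0% stood against 54.3 to 65.6%. The gap between groups was 8.53, 7.50 and 8.57 points for these tiles.
For the remaining members of the 12, the differences were 19.3 points in Marchf3 (a membrane-bound ubiquitin ligase), 17.8 within 2 kb outside Tuba1c (an alpha-tubulin), 17.7 in Hivep3 (a zinc finger transcription factor), 17.5 in Ints7 (a subunit of the Integrator complex) and 17.3 in Slc20a2 (a sodium-phosphate transporter). Control 1 was the lowest control by far in Ints7, at 53.8% against 76.8 and 84.2%, and there the gap to the lowest exposed library was 0.638 points. In Slc20a2 it was at 60% against 74.6 and 78.1%.

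**Figure D1:**
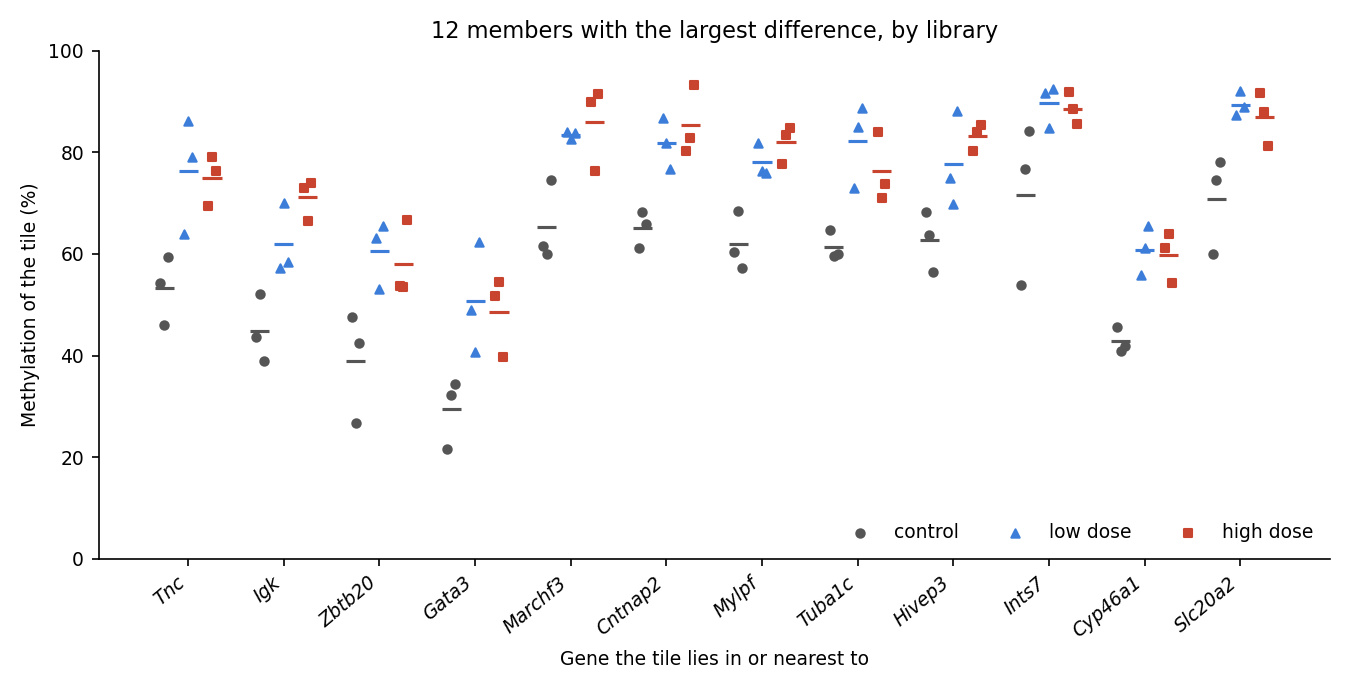
Percent methylation of the 12 member tiles with the greatest difference near named genes, 1 point per library, with bars at the group means. Exposed libraries lie above controls in each because the rule required it, and the Tnc tile shows the largest difference, 22.4 points.

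Few members lay at gene starts. Within 500 bp of a listed RefSeq start lay 43819 tiles (31% of all) but 82 members (7.40%), so 0.187% of start tiles were members. Inside gene spans but farther from a start, 681 of 70707 tiles were members (0.963%), and within 2 kb outside a gene 65 of 7698 (0.844%). The remaining 280 members (25.3%) lay farther away, among 19027 tiles, of which 1.47% were members. Exons and introns are not told apart by the annotation used, and the start list lacks many genes, including all on chromosome 18, which has 4192 tiles.
The start tiles were low in methylation, and when tiles with a control mean of 40 to 80% were taken alone the share of members was 1.43% near starts, 1.90% inside genes, 2.04% within 2 kb and 1.96% farther away. The 10 start members with the greatest differences include Prim1, which encodes the catalytic subunit of DNA primase. Its tile was at 6.67, 8.33 and 11.1% in controls, 22.6, 33.3 and 30.0% at the low dose and 12.7, 15 and 18.8% at the high dose. The low and high libraries did not overlap there.
At Nfix, a transcription factor of the nuclear factor I family, controls were at 8.08, 10 and 2.22%, low libraries at 18.4, 31.6 and 12.8% and high libraries at 21.0, 22.2 and 14.3%. The tile next to it was also a member, at 5.31 to 11.4% in controls and 11.7 to 19.6% in exposed libraries. The Ermap tile, at the start of a gene for an erythroid membrane protein, was at 51.1 to 59.5% in controls, 63.2 to 87.1% at the low dose and 60.9 to 65.2% at the high dose. Low 2 alone was above 70% there.
The remaining start tiles differed by 10.9 to 14.8 points. They were those of Gm33302, Gm29979, Gm36234 and Gm35815 (predicted genes), Krt76 (a keratin of stratified epithelium), Rhof and the first D130017N08Rik tile, which is also near Usp42. At Krt76 the gap between groups was 0.00952 points and at Gm36234 it was 0.0579.

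**Figure D2:**
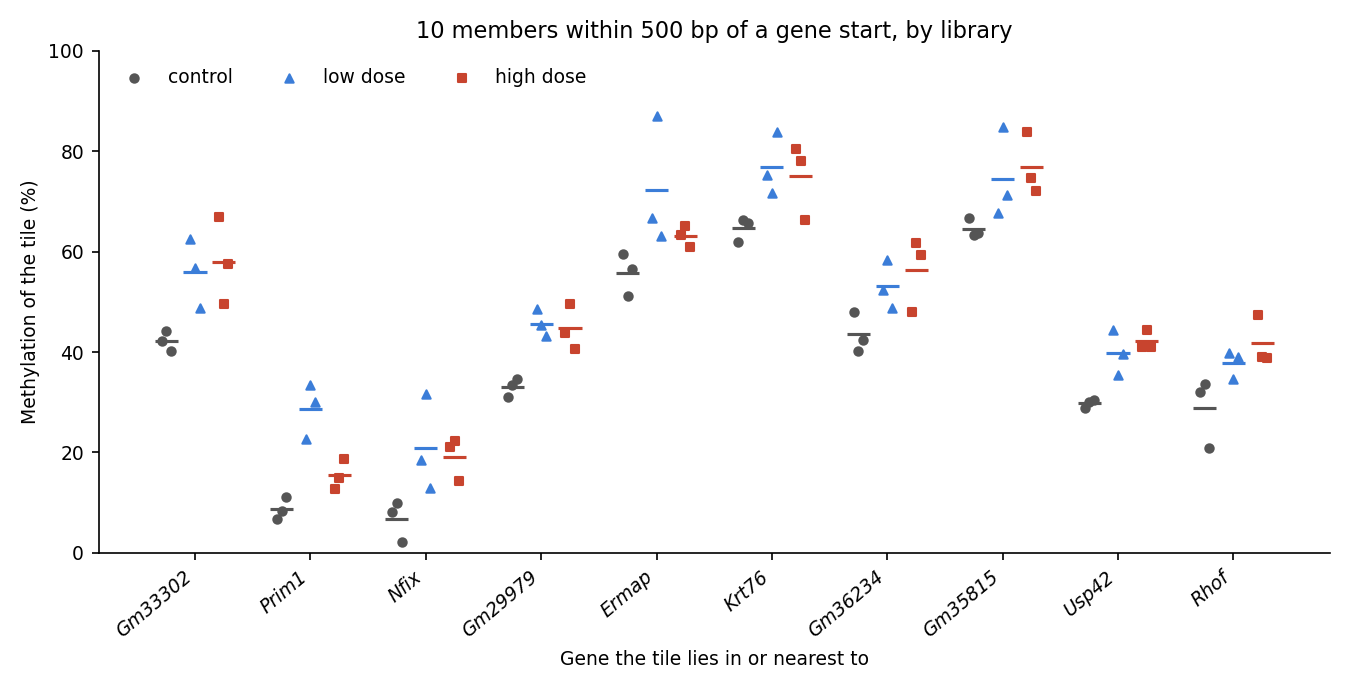
Percent methylation of the 10 member tiles within 500 bp of a listed gene start that differ most, 1 point per library, with bars at the group means. Prim1 lies at 6.67 to 11.1% in controls and higher at the low dose, 22.6 to 33.3%, than at the high dose, 12.7 to 18.8%.

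Members came mainly from tiles of middle methylation. Of tiles with a control mean of 60 to 80%, 501 of 25517 (1.96%) were members, and of those at 40 to 60%, 240 of 13315 (1.80%). The share was lower at the ends, with 26 of 38741 (0.0671%) at 0 to 5% and 4 of 5444 (0.0735%) at 90 to 100%. Tiles close to 100% cannot gain 5 points, so the minimum acts unequally over levels.
The 38832 tiles with a control mean of 40 to 80% made up 27.5% of tiles and held 66.9% of members. Their means were 62.7, 64.2 and 65.2% in the controls, 65.5, 64.7 and 65.9% at the low dose and 65.3, 65.5 and 64.8% at the high dose. Control 1 was lowest, and control 3 was above low 2 and high 3. The median difference between exposed and control was 1.28 points over these tiles. At 60 to 80% it was 1.26 points with all controls and 0.534 without control 1. The part of control 1 in the choice of members was not tested.
Left without control 1, the rule found 2586 tiles, among them 1024 of the 1108 members. A member cannot come to overlap when a library is left out, so it is lost only if its difference falls under 5 points. Fewer controls make the rule easier to meet, and without control 2 or control 3 it found 3242 or 3746.

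**Figure D3:**
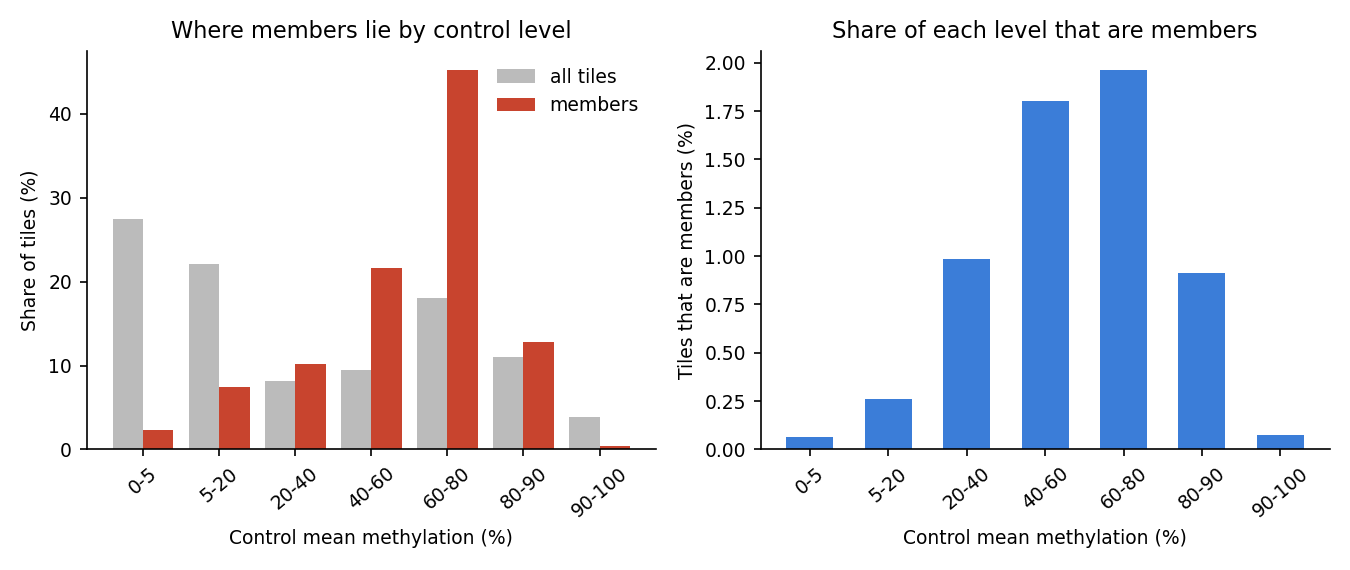
Tiles grouped by control mean methylation (x axis, %). Bars on the left give the share of all tiles and of members in each class, and bars on the right the share of tiles in the class that are members. The share of tiles that are members is greatest, 1.96%, at a control mean of 60 to 80% and lowest, 0.0671%, at 0 to 5%.

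Members were scattered over the genome. They lay on all autosomes and X, with 92 on chromosome 11, 89 on chromosome 5, 84 on chromosome 4 and 83 on chromosome 2. Among autosomes the share of tiles that were members ranged from 0.541% (chromosome 9) to 0.964% (chromosome 10). There were 17 members among 2132 tiles of X and 0 among 71 of Y.
Most members stood alone: 1068 had no other member within 1 kb, and 40 formed 20 pairs. A measured tile touched the member in 474 of the 1108, and the rest had no touching tile that could be a member. Of the 534 touching tiles 26 were members, and the other 508 had a median difference of 1.21 points (quartiles -0.740 and 3.84), 65.0% of them positive. All tiles had a median difference of 0.0865 points, 53.2% positive. Touching tiles can share reads, and their median control mean was 63.3%, which is the level at which tiles as a whole differed by more than 1 point.
The pair with the greatest mean difference lay at chr16:59239701-59239900, in no annotated gene and with none within 2 kb. Its tiles differed by 7 and 20.8 points, and the second was at 65.2, 53.5 and 50.8% in controls, 87.8, 78.1 and 76.8% at the low dose and 70.5, 72.7 and 77.9% at the high dose. Other pairs lay in Rxfp1 (the relaxin receptor), Doc2b (a calcium sensor of vesicle release) and Trub1 (a pseudouridine synthase of transfer RNA). The Rxfp1 tiles differed by 16.5 and 10.4 points, the Doc2b tiles by 7.78 and 14.7, and the Trub1 tiles by 9.85 and 10.1.
Genes that held 3 or more members, in their span or within 2 kb of it, were named after their values were seen. There were 4, picked for their counts from the 910 genes that held a member. The counts are thus descriptions, beside 0.784% of all tiles that were members. Gse1, a protein of a histone deacetylase corepressor complex, held 5 members among 184 tiles, spread over a gene of 352.9 kb. Its tile at chr8:120533101-120533200 was at 19.9, 15.5 and 21.2% in controls, 28.9, 22.2 and 26.9% at the low dose and 32.9, 33.9 and 32.6% at the high dose. Camkk2 (a kinase that activates AMP-activated protein kinase) held 3 of 32, Tafa5 (a secreted chemokine-like protein) 3 of 21 and Cdk1 3 of 13. Besides the start tile, the Cdk1 members were at 79.1 to 83.6% and 81.9 to 85.2% in controls and at 84.4 to 90.8% and 86.8 to 96.9% in exposed libraries.

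Lists of genes related to development, imprinting and DEHP were examined by the share of their tiles that were members, beside 0.784% of all tiles. That share varied with control level, which was not matched here, so the list shares are descriptions. Median control means were 34.2% (imprinted), 14.5% (patterning), 11.1% (signalling), 55.2% (germline), 8.89% (chromatin) and 14.3% (lipid). Over all tiles the median was 20.8%. Losing tiles numbered 2, 15, 7, 1, 2 and 1 in that order, beside 0.413% of all tiles. Imprinted genes had 3 members among 401 tiles (0.748%). The tile in Rtl1, a paternally expressed gene needed in placental vessels, was at 75, 79.2 and 77.7% in controls, 79.8, 85.0 and 86.1% at the low dose and 87.5, 89.4 and 83.2% at the high dose. The tile in Gnas, which encodes the stimulatory G protein alpha subunit, was at 24.5 to 29.5% in controls and 30.0 to 42.2% in exposed libraries. That in Sfmbt2, a Polycomb-group gene expressed from the paternal allele, was at 0 to 7% and 7.25 to 10.5%.
Homeobox and other patterning factors had 17 members among 2564 tiles (0.663%) in 15 genes. Besides Gata3, the greatest differences were within 2 kb outside Foxc1 (9.95 points, a forkhead factor of mesoderm) and in Gata6 (9.50, a factor of primitive endoderm and heart) and Pax2 (9.08, a factor of kidney and midbrain). The Foxc1 tile was at 20.2, 21.5 and 23.3% in controls and at 24.8 to 37.3% in exposed libraries, with high 2 the lowest of these.
Signalling genes of gastrulation had 10 members among 1679 tiles (0.596%) in 9 genes. In Etv5, a transcription factor induced by fibroblast growth factor, the tile was at 57.4, 52.0 and 58.3% in controls, 59.6, 78.0 and 68.8% at the low dose and 69.3, 78.3 and 82.5% at the high dose. The differences were 10.1 points in Bmp7 (a bone morphogenetic protein), 10 in Rxrg (a retinoid X receptor) and 9.39 in Fzd7 (a Wnt receptor).
Germline genes had 0 members among 136 tiles. DNA methylation and chromatin enzymes had 1 among 764, in the histone deacetylase Hdac7 (5.11 points). Lipid metabolism and target genes of the peroxisome proliferator-activated receptors (PPARs), nuclear receptors through which phthalate monoesters are known to act, had 1 among 408. That tile lay in Ppard itself and was at 64.6, 63.0 and 73.0% in controls, 79.0, 76.4 and 82.9% at the low dose and 77.3, 76.0 and 84.1% at the high dose.
Promoters of imprinted genes methylated on the maternal allele, which are known to be near 0 in sperm, served to look at the tissue. The 37 tiles within 500 bp of the starts of 12 such genes averaged 29.7 to 32.9% in the 9 libraries, with medians of 31.1 to 40.9%. These values were not near 0 in any library, and which tissue was measured was not tested. None of the 37 was a member, beside 0.784% of all tiles, so few tiles would be members at that share.

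The low and high groups were compared directly, a contrast that the rule did not use. The low dose exceeded control by a median of 8.74 points over members and the high dose by 8.13. The difference of high minus low had a median of -0.624 points and ranged from -13.6 to 11.2. The gain was greater at the low dose in 643 members and at the high dose in 465. Low and high means lay within 2 points of each other in 531 members and 5 points or more apart in 162.
Limma with Benjamini-Hochberg adjustment called 0 members and 0 tiles (0.0%) for high against low. At an unadjusted p under 0.05, 22 members were higher and 53 lower at the high dose, or 1.99% and 4.78% of members, against 2.39% and 2.32% of all tiles. All 3 high libraries lay above all 3 low libraries in 26 members (2.35%) and below them in 72 (6.50%), against 4.8% and 4.76% of all tiles. The rule treats the doses alike but bounds how far either can lie toward control, so members are not tiles chosen freely of both doses.
The Prim1 start tile was among those with the greatest difference between doses: the high mean was 13.2 points lower (SE 2.93), with an unadjusted limma p of 0.00271 and an adjusted p of 0.872. It was at 28.6% ± 5.50 at the low dose and 15.5% ± 3.05 at the high dose (SD, n = 3 each). The Ermap tile was 9.16 points lower at the high dose (SE 5.98, limma adjusted p = 1), and the Igk tile was 9.27 points higher (SE 4.57, limma adjusted p = 1). Both of these dose groups overlapped at Ermap, and at Igk high 2 lay below low 2.

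**Figure D4:**
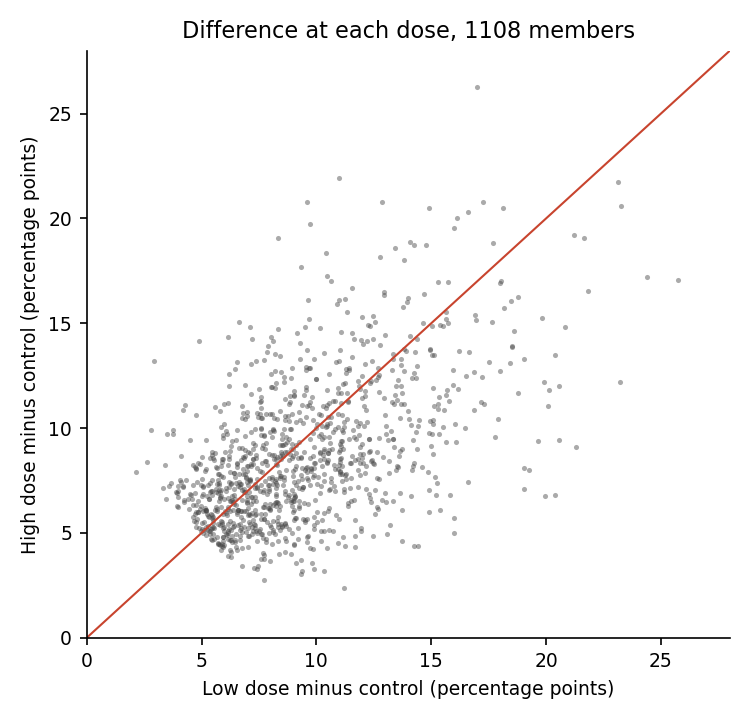
Difference from control at the low dose (x axis) and the high dose (y axis), in percentage points, for the 1108 members. Both axes share the same 3 controls, so points that lie along the diagonal follow in part from that, and the medians are 8.74 and 8.13 points.

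Expression was a readout that the rule did not use. Of the 910 genes that held a member within their span or 2 kb of it, 676 were protein-coding and 488 were measured, among 12987 genes tested with limma on log2(CPM + 1). The labels list RNA of embryonic and extra-embryonic samples and none of sperm, but which of these the expression table holds is not known. The low and high comparisons share the 2 control libraries.
No gene that held a member passed the adjusted threshold at either dose or for both doses together. Over all genes 0 (0.0%) passed at the low dose, 1 (0.0077%) at the high dose and 1 (0.0077%) for both doses, and that 1 gene held no member. At the low dose, 4 of the 488 were higher and 24 lower at an unadjusted p under 0.05, or 0.820% and 4.92%, against 1.9% and 2.97% of all genes. These counts changed when single libraries were left out, over all genes as well as in the 488. Without control 1 the greater number was on the higher side, in the 488 and over all genes. Without any other single library the lower side kept the greater number in the 488. Calls at the adjusted threshold also changed without control 2 or low 2, in the 488 and over all genes.
At the high dose 19 were higher and 10 lower (3.89% and 2.05%), against 3.65% and 1.64% of all genes. In the 488 the lower side had the greater number without control 2 or without high 1, where over all genes the higher side had it. Without high 2 the higher side had it in the 488 and the lower side over all genes. With quantile normalization the counts were 16 and 15 (3.28% and 3.07%, against 2.76% and 2.55% of all genes). For both doses 11 were higher and 12 lower (2.25% and 2.46%), against 2.72% and 1.43%. Without control 1 or low 2 the higher side had the greater number in the 488, and without any other single library the lower side. Over all genes it was the higher side except without high 2. All 4 exposed libraries lay above both controls in 29 of the 488 (5.94%, against 9.1% of all genes) and below both in 34 (6.97%, against 4.65%).
The log2 fold change was positive in 40.4% of the 488 at the low dose (51.0% of all genes), in 55.7% at the high dose (58.6%) and in 47.3% for both (54.4%). The medians were -0.02, 0.01 and 0.00, against 0.00, 0.02 and 0.01 over all genes. The direction at the high dose depended on the scaling and on single libraries. With quantile normalization 45.7% were positive (48.5% of all genes) and the median was -0.01. The share was 48.8% without high 1 (57.5% of all genes) and 49.8% without control 2 (58.4%). At the low dose it was 40.4 to 44.1% in every setting, against 49.4 to 52.2% of all genes. These shares were not tested.

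Of the 488 genes, the smallest p at the low dose was that of Gli2, a transcription factor of Hedgehog signalling. It was at 42.7 and 39.2 CPM in controls, 28.4 and 29.9 CPM at the low dose and 38.6 and 37.5 CPM at the high dose. The low libraries lay below the other 4, and the log2 fold change for low against control was -0.47 (SE 0.07, limma adjusted p = 0.796). Its member, at chr1:119022801-119022900, averaged 81.4% in controls, 87.5% at the low dose and 88.0% at the high dose.
Robo2, a receptor of the Slit guidance cues, was at 3.70 and 1.75 CPM in controls, 0.463 and 1.02 CPM at the low dose and 3.06 and 4.55 CPM at the high dose, and its low log2 fold change was -1.07 (SE 0.28, limma adjusted p = 0.928). It was -0.68 without control 1 and -1.74 with a pseudocount of 0.1. Gucy2e, a guanylate cyclase of photoreceptors, was at 1.39 and 1.24 CPM in controls and 0.624 and 0.680 CPM at the low dose, with a log2 fold change of -0.49 that was -0.91 with a pseudocount of 0.1. On the higher side at the low dose, Adamtsl2 (a matrix protein), Plpp1 (a lipid phosphatase) and Ass1 (argininosuccinate synthase) had log2 fold changes of 0.39, 0.27 and 0.37 (limma adjusted p = 0.928 for each), and that of Ass1 was 0.21 without control 2.
Tcf7l2, a transcription factor of Wnt signalling, had the smallest p among genes lower at the high dose. It was at 33.5 and 30.5 CPM in controls, 30.9 and 31.1 CPM at the low dose and 26.3 and 24.5 CPM at the high dose, a log2 fold change of -0.32 (SE 0.07, limma adjusted p = 0.866). Its tile averaged 67.0% in controls, 73.8% at the low dose and 78.0% at the high dose. Cd8a (a T cell coreceptor) and Camta1 (a calmodulin-binding transcription activator) had log2 fold changes of -0.37 and -0.23, and that of Cd8a was -0.58 with a pseudocount of 0.1.
Tshz1, a zinc finger developmental factor, was at 5.33 and 3.91 CPM in controls, 3.11 and 4.78 CPM at the low dose and 9.16 and 9.85 CPM at the high dose (log2 fold change 0.91, SE 0.18, limma adjusted p = 0.866). Both high libraries exceeded the other 4. The markers of extraembryonic ectoderm that were measured (3 of 5) summed to 41.9 to 61.2 CPM in controls, 38.2 to 50.9 at the low dose and 69.7 to 78.4 at the high dose, with Elf5 and Esx1 not listed. All 7 markers of the embryo proper were measured, and they summed to 1015 to 1133 CPM in controls, 1083 to 1248 at the low dose and 819 to 954 at the high dose. In the same order, decidua markers (4 of 5) summed to 24.1 to 27.9, 25.8 to 28.6 and 31.3 to 31.4 CPM. Visceral endoderm markers (5) summed to 758 to 1545, 1229 to 1393 and 1199 to 1621 CPM. The 1 blood marker measured of 3 was at 2.34 to 2.40, 2.47 to 2.69 and 1.90 to 2.04 CPM. A sum can rest on 1 gene. The part of any marker list in the Tshz1 values, or in the high-dose values of the other genes, was not tested. In bulk libraries fewer cells of a type and less RNA per cell cannot be told apart.
Prim1, Cdk1 and Gata3, whose tiles are described above, did not pass the test. Prim1 was at 49.9 and 52.7 CPM in controls and 52.1 to 55.0 CPM in exposed libraries, with a log2 fold change of 0.05 for both doses (SE 0.05, limma adjusted p = 0.945). Cdk1 was at 165.6 and 166.0 CPM in controls and 165.5 to 176.1 CPM in exposed libraries, with a log2 fold change of 0.05 (SE 0.04, limma adjusted p = 0.945). Gata3 was at 3.75 and 2.39 CPM in controls and 3.30 to 4.61 CPM in exposed libraries, with a log2 fold change of 0.33 (SE 0.15, limma adjusted p = 0.945).

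**Figure D5:**
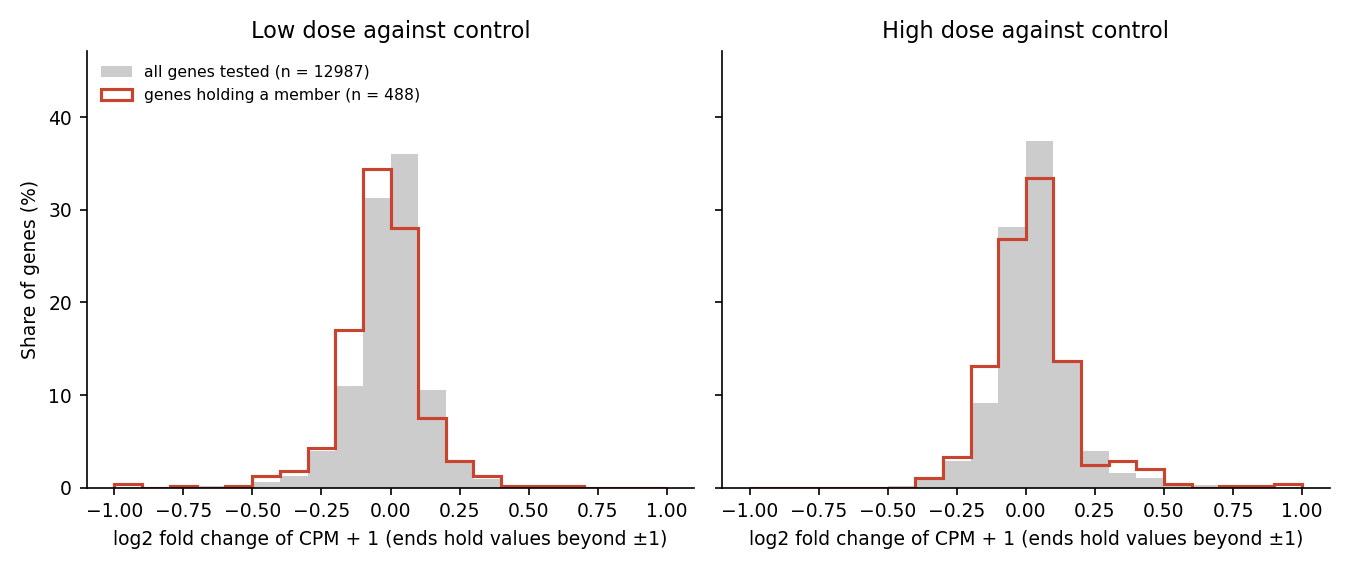
Distribution of log2 fold changes of CPM + 1 (x axis) as the share of genes (y axis, %) for genes that hold a member tile (line) and all genes tested (grey bars), at the low dose (left) and high dose (right) against control. At the low dose 40.4% of the 488 genes lie above 0, against 51.0% of all genes, and at the high dose 55.7% against 58.6%.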

How the data were processed

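The authors deposited percent methylation per 100 bp tile, without coverage and without missing values, and expression as CPM (counts scaled to a common total). Bismark, Bowtie 0.12.2, Bowtie2, edgeR, methylKit, SAMtools, TopHat and Trim Galore, and the builds mm8 and mm10, are named without role per the submitters' processing notes. Treatment was taken from column names. Every one of the 10634 tiles in GRCm38.p6 promoter windows contained a CpG, against 80.5 to 84.7% in windows shifted by 100000 to 3000000 bp, so GRCm38.p6 names and coordinates were used.

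Members and gene lists were chosen with earlier results of these data known. The 9 methylation libraries were fitted per tile with limma 3.58.1 in R 4.3.3 on percent, without a trend. Expression was fitted with limma and a mean-variance trend on log2(CPM + 1), keeping genes that reached 1 CPM in 2 of the 6 libraries, which understates changes of low genes. Lines without a gene (27.9 to 29.8% of each column) were left out. Calls needed a Benjamini-Hochberg adjusted p under 0.05. Both fits were first tested on simulated data. Relative totals of the expression libraries, as shares of control 1, were 1.02 for control 2 and 1.02 and 1.04 for the low libraries. They were lowest in the high libraries, at 0.824 and 0.869, so total and high dose cannot be told apart. The part of this in the high-dose values was not tested, and read totals are unknown.

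Tiles were assigned to genes whose span or 2 kb flank they touched (86.5% of tiles). Named were the 12 members that differ most near genes with symbols other than predicted ones, the 10 that differ most within 500 bp of a start, up to 10 pairs, up to 4 per gene list, 3 on either side of the threshold, and for expression the 3 genes with the smallest p per direction and comparison, of which 1 is not reported here. Alternatives varied the minimum difference, tile and gene distances, scale, trend, normalization, pseudocount, replicate block and libraries.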

Additional observations from a re-analysis of the deposited data

How the results depend on the processing

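The count of 1108 members was 364 with a minimum of 10 points, 1844 with no minimum, and 1536 to 3746 when each library was left out in turn. In those, 1024 to 1083 members were kept. The rule nearly fixes that number, because leaving out a library cannot make a member overlap and only the 5 point minimum can remove it. With columns shifted to 1 mean it was 945, with 739 losing. Losing tiles (584) numbered 134, 1372 and 837 to 2213. Members near starts numbered 82 within 500 bp and 174 within 2 kb. Limma's calls over all tiles are given as background only, since the rule used the contrasts with control. The 0 calls became 5, 8, 8 and 8 on a logit scale (low, high, both doses, high against low) and 1, 2, 1 and 2 with a mean-variance trend, which was chosen after seeing the data. Leaving out single libraries gave 0 to 1 calls for each comparison with control and 0 for high against low. In expression, the 0 calls of low against control became 0 to 65 without single libraries, with 65 when low 2 was left out and 10 without control 2. The 1 call of high against control became 0 with no trend and 0 to 2 without single libraries, and that of both doses 0 with pseudocount 0.1, no trend or quantile normalization and 0 to 7 without single libraries. With a column number as replicate block the counts were 0 and 0. Correlations of same-numbered deviations were -0.033 to 0.029 in methylation, where differently numbered ones were -0.031 to 0.027. In expression they were -0.073 to 0.090. With 2 expression libraries per group the deviations mirror each other, so those values cannot show whether the numbers pair libraries. The difference of library means was 0.111 to 0.522 points without single libraries. The causes were not tested. Where an arm had 1 library left, it was assumed to vary like the others. The alternative on missing values gave no value, because there are none. Unknown coverage and 2 or 3 libraries per group limit what these data can show, so an absence of calls does not show that values did not differ.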
